A study of Mus musculus with 4 samples.

Results

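Na,K-ATPase is the pump that exports sodium and imports potassium at the expense of ATP. It is built from a catalytic alpha subunit and a glycosylated beta subunit that brings the alpha subunit to the plasma membrane, and a small FXYD protein can join the complex and tune its affinity for ions. In the stria vascularis (SV), the epithelium of the cochlear lateral wall that generates the endocochlear potential, the pump in the basolateral membrane of marginal cells and the potassium channels of intermediate cells are known to move potassium toward the endolymph. The genes described here are the beta subunits Atp1b1, Atp1b2 and Atp1b3 and the FXYD members Fxyd1 (phospholemman), Fxyd2 (the gamma subunit) and Fxyd6 (phosphohippolin). They were taken by symbol, and all 6 were listed once among the 27998 genes of each whole cell capture and among the 48816 genes of the nucleus capture.

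The SV came from CBA/J mice at postnatal day (P) 30, and the labels name no treatment and no altered gene. There were 3 captures of whole cells (scRNA-Seq) and 1 capture of nuclei (snRNA-Seq). Each capture was 1 suspension pooled from several mice, about 12 for cells and about 10 for nuclei per the labels. The study's own descriptions give other numbers of mice, fewer for cells, and the conflict could not be settled. Either way the spread between captures covers suspensions and not single animals. The question was which beta and FXYD isoforms each SV cell type used, and whether the captures and the nuclei gave the same order.

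Filters left 377 of 392, 1314 of 1358 and 1461 of 1580 barcodes of cells in captures 1, 2 and 3, and 9723 of 11057 nuclei. Between 0 and 32 barcodes were shared by any pair of captures. Types are clusters called by marker genes, so that marginal stands for marginal-like and so on. They gave 136 marginal, 935 intermediate, 108 basal and 29 spindle/root cells, and 2476, 1473, 642 and 205 nuclei of the same types. All 8 marginal, 5 basal and 6 spindle/root markers had UMIs in their type in both datasets, as did the 10 intermediate markers except Pmel in cells. All 8 marginal markers had UMIs in the other types too, and all 5 basal markers had UMIs in marginal and intermediate cells and nuclei. A UMI of a marker therefore does not set a type apart. The clusters were also named from these same markers, so their presence is no test of the names. Another 1750 cells and 3848 nuclei stayed unnamed. UMIs were summed per capture and type. Spindle/root cells of capture 1 numbered 4 and were left out, so that spindle/root values of cells rest on 2 captures and those of the other types on 3. Levels are CPM, the UMIs of a gene relative to all UMIs of its sum. Each UMI stands for 1 molecule tagged near its 3′ end, so CPM needs no division by gene length. The intermediate markers summed to 6625 CPM in marginal cells, against 2578 CPM for the marginal markers. In basal cells they reached 8597 CPM against 4037 CPM for the basal markers, and in basal nuclei 5202 against 1297 CPM. The marginal markers also stood above the basal markers in basal nuclei, at 1594 CPM, but not in basal cells, at 237 CPM. In marginal nuclei and in spindle/root cells and nuclei the intermediate markers stood below the markers of the type.

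On mm10 with the GENCODE vM21 annotation, Atp1b1 lies at chr1:164437109-164458355, Atp1b2 at chr11:69599736-69605942, Atp1b3 at chr9:96332655-96364442 and Fxyd1 at chr7:31051678-31057199, all on the minus strand. Fxyd6 at chr9:45370185-45396159 and Fxyd2 at chr9:45399669-45410278 follow each other on the plus strand with 3509 bases between them. Atp1b1 shares 617 bases with Nme7 on the opposite strand, and the methods do not state whether counting used the strand. The level of Nme7 was 17.7 CPM in marginal, 11.9 CPM in intermediate, 11.5 CPM in basal and 5.71 CPM in spindle/root cells, against 1585 to 6121 CPM for Atp1b1. The 250 bases before the RefSeq start of transcription (GRCm38.p6) are printed for Atp1b1, the most abundant beta subunit of intermediate cells, and for Fxyd6, whose UMIs lay mostly in spindle/root cells. The first lies at chr1:164458356-164458605 on the minus strand and the second at chr9:45369935-45370184 on the plus strand. Capitals mark the GC box GGGCGG on either strand.
Atp1b1: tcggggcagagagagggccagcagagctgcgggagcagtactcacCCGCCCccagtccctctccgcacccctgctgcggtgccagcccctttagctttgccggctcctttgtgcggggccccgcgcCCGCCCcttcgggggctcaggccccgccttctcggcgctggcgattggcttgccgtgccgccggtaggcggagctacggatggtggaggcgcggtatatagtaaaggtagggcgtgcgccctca
Fxyd6: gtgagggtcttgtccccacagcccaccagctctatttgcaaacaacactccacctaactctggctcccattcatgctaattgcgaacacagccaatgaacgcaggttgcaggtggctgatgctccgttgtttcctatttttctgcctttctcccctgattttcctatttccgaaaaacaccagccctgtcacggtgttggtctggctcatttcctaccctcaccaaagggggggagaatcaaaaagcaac
The Atp1b1 window held 2 GC boxes and a GC content of 70.4%, and the Fxyd6 window held none at 50.4%. GGGCGG was present in 32.7% of 32851 promoter windows of this length. The E-boxes CACGTG and CATGTG, known as binding sites of the melanocyte factor MITF, were in neither window and in 6.02% and 12.3% of all windows, on either strand. Windows of other members are not printed. For Atp1b3, the window at chr9:96363716-96363965 held 1 CACGTG and no GC box. The Atp1b3 window at chr9:96364432-96364681 held 5 GC boxes and no E-box, and the Fxyd1 window held none of these motifs. Windows for Atp1b2 and Fxyd2 were not used here.

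The beta subunits were distributed unequally over the 4 types. The level of Atp1b2 was highest in marginal cells, that of Atp1b1 in intermediate cells, and that of Atp1b3 in intermediate and basal cells. As a share of beta UMIs, Atp1b1 led in basal (69.8%) and spindle/root cells (56.3%) as well as in intermediate cells (84.4%). Atp1b2, the beta 2 subunit that was first known as an adhesion molecule on glia, reached 4568, 4154 and 4233 CPM in marginal cells of captures 1, 2 and 3. In spindle/root cells it was 788 and 993 CPM, in basal cells 327, 159 and 165 CPM, and in intermediate cells 70.7, 70.9 and 59.0 CPM. No ranges overlapped. The mean in marginal cells, 4318 CPM ± 220 (SD, n = 3), was 64.6 times that in intermediate cells, 19.9 times that in basal cells and 4.85 times that in spindle/root cells.

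For a test, every type was set against the mean of the 3 remaining types with edgeR's quasi-likelihood test, and p-values were adjusted over 7429 genes by the Benjamini-Hochberg method. Atp1b2 was higher in marginal cells by 4.12 ± 0.10 (SE) on the log2 scale (adjusted p = 8.2e-45) and higher in spindle/root cells by 0.99 ± 0.16 (adjusted p = 1.6e-06). It fell by 3.49 ± 0.14 in intermediate cells (adjusted p = 5.4e-33) and by 1.61 ± 0.14 in basal cells (adjusted p = 8.4e-16). All 6 pairs of types differed for Atp1b2 in the same fit, the smallest difference being 1.40 ± 0.16 between basal and intermediate cells (adjusted p = 4.6e-11). Of these, 4 calls were lost under another choice of cells. With at most 50% mitochondrial UMIs the difference turned to 0.51 for intermediate against basal (adjusted p = 0.29), 0.62 for intermediate against spindle/root (adjusted p = 0.54) and 0.11 for basal against spindle/root cells (adjusted p = 0.94), and with coarser clusters (resolution 0.4) to -0.088 for marginal against spindle/root cells (adjusted p = 0.61). Both pairs of marginal cells with intermediate and basal cells kept their calls under every alternative run.

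Atp1b1, the widely expressed beta 1 subunit, was 6310, 6020 and 6033 CPM in intermediate cells. It was 3583, 2540 and 3020 CPM in basal cells, 2841, 2127 and 1968 CPM in marginal cells, and 1800 and 1370 CPM in spindle/root cells. Intermediate cells lay above every other sum, whereas basal and marginal cells overlapped. The difference of intermediate cells from the other types was 1.76 ± 0.09 (adjusted p = 2.3e-28), and Atp1b1 fell by 0.54 ± 0.10 in marginal cells (adjusted p = 2.2e-05) and by 1.32 ± 0.14 in spindle/root cells (adjusted p = 1.3e-12). Basal cells did not pass the test (0.10 ± 0.10, adjusted p = 0.55). At resolution 0.4 the marginal call was lost (-0.06, adjusted p = 0.74) and basal cells were higher (1.02, adjusted p = 6.6e-13), as they were with 20 principal components (0.27, adjusted p = 0.025). Marginal and basal cells, neighbours in this order, differed by -0.47 ± 0.12 in the pairwise fit (adjusted p = 0.00088) and by 1.62, the opposite way, with at most 50% mitochondrial UMIs (adjusted p = 2.2e-13).

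Atp1b3, the beta 3 subunit, had a narrower range. It was 1056, 1144 and 1065 CPM in basal cells, 1135, 1023 and 1032 CPM in intermediate cells, 553, 527 and 479 CPM in marginal cells, and 420 and 228 CPM in spindle/root cells. Basal and intermediate cells overlapped and were not separated by the test (0.20 ± 0.11, adjusted p = 0.19), while the other 5 pairs differed. Against the other types, Atp1b3 was higher by 1.21 ± 0.10 in intermediate and by 0.95 ± 0.11 in basal cells (adjusted p = 2.1e-17 and 1.0e-11), and it fell by 0.56 ± 0.12 in marginal and by 1.60 ± 0.18 in spindle/root cells (adjusted p = 8.9e-05 and 1.5e-11). The marginal call was lost without capture 2 (-0.41, adjusted p = 0.10), and that of marginal against spindle/root cells without capture 3 (0.51, adjusted p = 0.22). The marginal difference turned to 0.39 with at most 50% mitochondrial UMIs (adjusted p = 0.21) and to 0.026 at resolution 0.4 (adjusted p = 0.93), and with the former intermediate and basal cells differed (0.65, adjusted p = 0.0026).

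**Figure D1:**
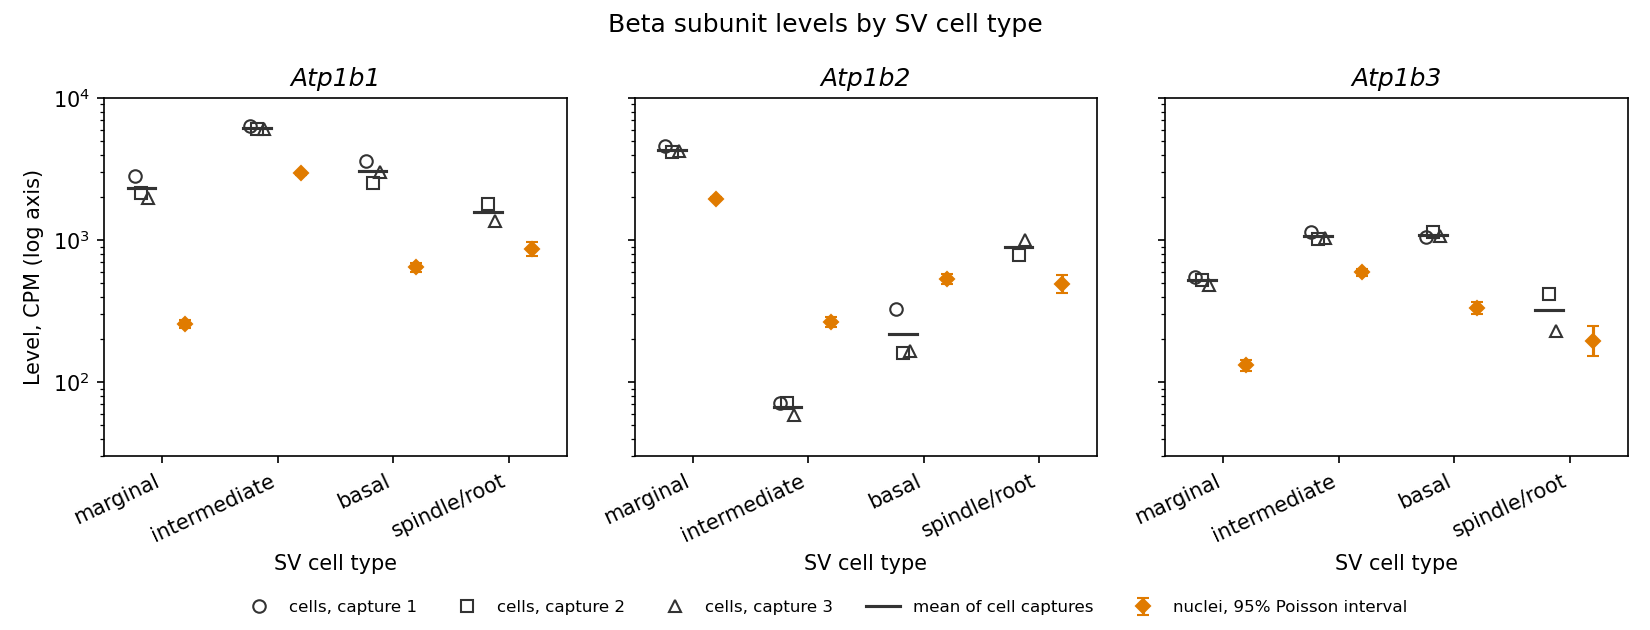
Level of each beta subunit in CPM (log axis) by SV cell type, with open symbols for the whole cell captures, a line for their mean and diamonds for the nuclei with 95% Poisson intervals. Atp1b2 in marginal cells sits at 4154 to 4568 CPM and in intermediate cells at 59.0 to 70.9 CPM, and for this gene the nuclei of the other types lie closer to the marginal nuclei than the cells do to the marginal cells.

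Marginal cells had 1 member called higher and 3 lower, where 16.0% and 9.92% of all genes tested were called in these directions. Intermediate cells had 3 higher and 2 lower against 17.7% and 17.6%, basal cells 1 higher and 2 lower against 15.2% and 9.57%, and spindle/root cells 2 higher and 2 lower against 11.5% and 8.02%. These counts are out of 5 members, since Fxyd2 did not pass the filter on low counts. Fxyd6 passed it only through its spindle/root sums, so its call there, 1 of the 2 higher, is no independent result. Over the 5, the median log2 difference was -0.56 in marginal, 1.21 in intermediate, -0.26 in basal and -0.57 in spindle/root cells, beside 0.06, 0.03, 0.02 and -0.10 over all genes tested.

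**Figure D2:**
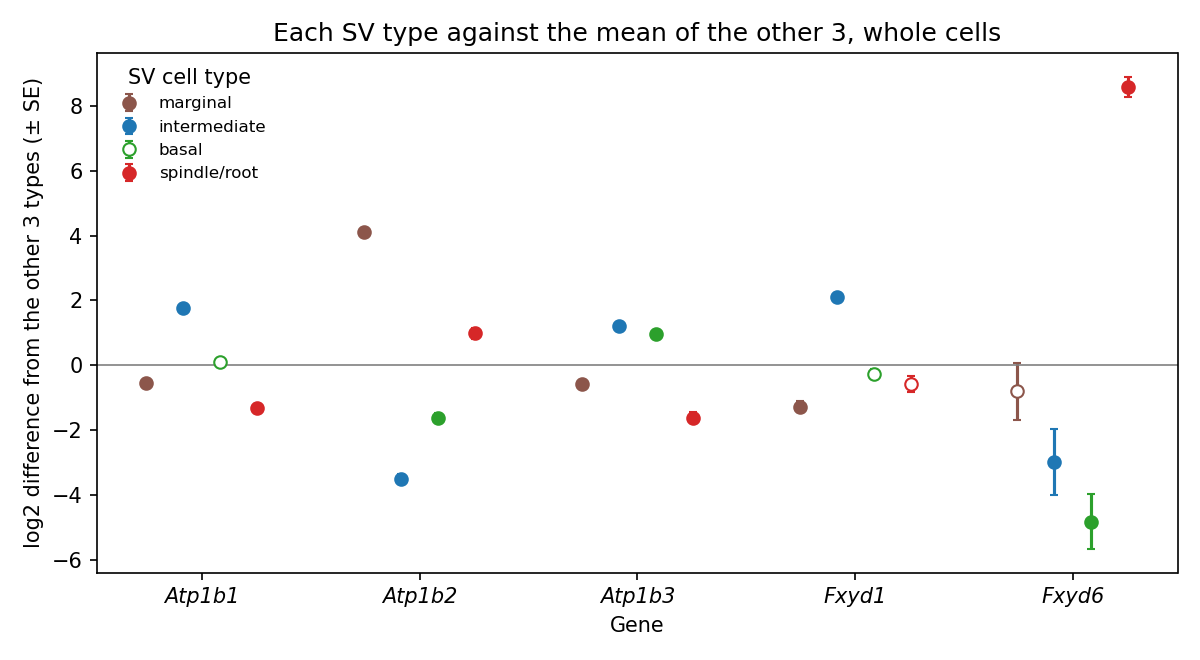
Log2 difference of each SV type from the mean of the other 3 types in whole cells, with SE, for the 5 members past the filter; filled points have an adjusted p under 0.05. Atp1b2 is highest in marginal cells (4.12) and Fxyd6 in spindle/root cells (8.58), and Atp1b1, Atp1b3 and Fxyd1 are highest in intermediate cells. Fxyd6 passed the filter only through its spindle/root sums.

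The isoform share, which does not depend on the library total, was taken as the part of each beta subunit in the summed beta UMIs. In marginal cells Atp1b2 made up 57.4%, 61.0% and 63.4% in captures 1, 2 and 3, Atp1b1 32.1% ± 3.20 and Atp1b3 7.28% ± 0.41 (SD, n = 3). In intermediate cells Atp1b1 made up 84.4% ± 0.40, Atp1b3 14.7% ± 0.39 and Atp1b2 0.92% ± 0.09. Basal cells had 69.8% ± 3.23 Atp1b1, 25.4% ± 4.26 Atp1b3 and 4.87% ± 1.49 Atp1b2. With at most 50% mitochondrial UMIs per barcode, the leading isoform of basal cells changed, to 49.0% Atp1b3 beside 48.0% Atp1b1. Spindle/root cells of captures 2 and 3 had 59.8% and 52.9% Atp1b1, 26.2% and 38.3% Atp1b2, and 14.0% and 8.81% Atp1b3. Their leading isoform became Atp1b2 at resolution 0.4, with 82.7% beside 14.3% Atp1b1. With 20 principal components, which left 1 of their sums, it was also Atp1b2, with 48.1% beside 42.0% Atp1b1. The captures of no pair of types overlapped for any of the 3 isoforms, in 18 comparisons. That count has no background of its own kind. By the edgeR test, a different measure, the share of all genes called in either direction was 36.0% for marginal against intermediate, 30.7% for marginal against basal, 18.6% for marginal against spindle/root, 34.1% for intermediate against basal, 26.1% for intermediate against spindle/root and 21.3% for basal against spindle/root cells. The exact two-sided permutation test gave p = 0.1 with 3 captures against 3 and p = 0.2 with 3 against 2, the smallest values these designs allow, and 0.2 for both after adjustment over the 18. It did not pair the types of a capture. The 3 shares of a type add up to the whole, so the 18 comparisons are not independent. The summed beta level was 7150 CPM ± 707 in marginal and 7251 CPM ± 229 in intermediate cells (SD, n = 3), and 4353 CPM ± 569 in basal and 2800 CPM ± 295 (SD, n = 2) in spindle/root cells.

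**Figure D3:**
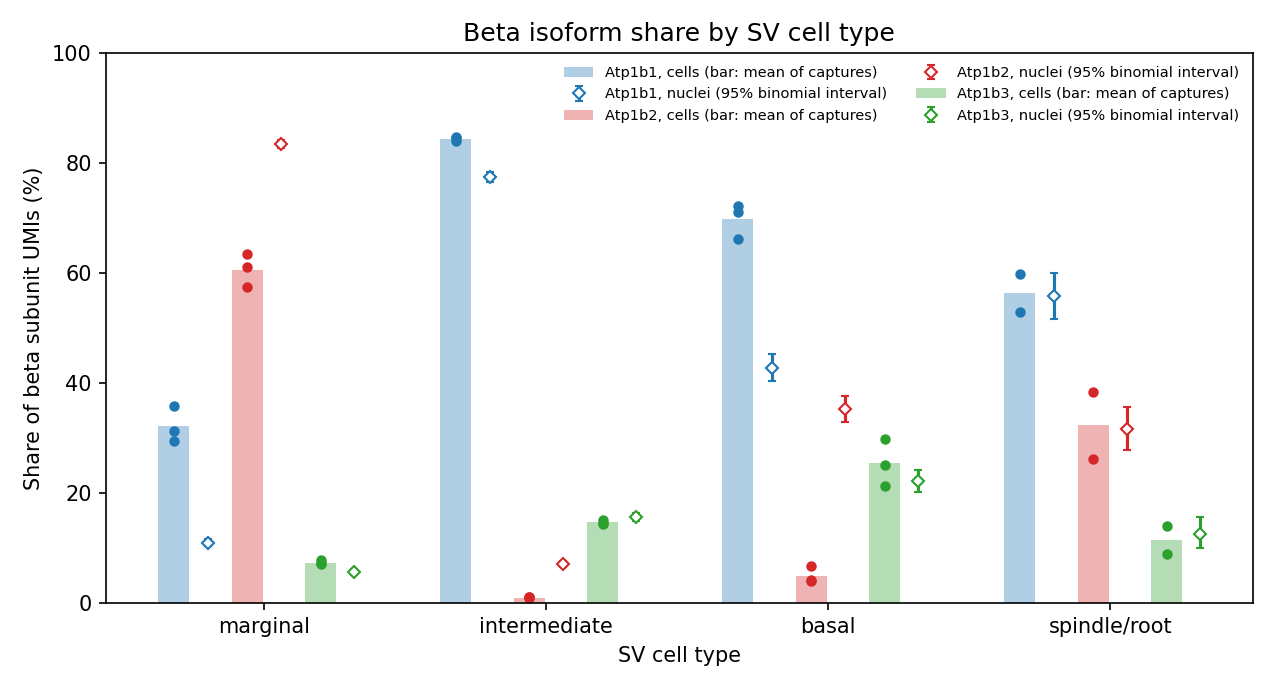
Share of the summed beta subunit UMIs (%) taken by each isoform in each SV type, with bars for the mean of the whole cell captures, dots for single captures and open diamonds for the nuclei with 95% binomial intervals. Atp1b2 holds 60.6% in marginal cells and 83.5% in marginal nuclei, and 0.92% and 6.97% in intermediate cells and nuclei.

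Among single cells with at least 10 beta UMIs, Atp1b1 was the majority isoform in 911 of 913 intermediate cells. Atp1b2 held the majority in 94 of 134 marginal cells and Atp1b1 in 22, and the share of Atp1b2 had a median of 65.7%, with 31.1% and 97.9% as its 10% and 90% points. At least 1 UMI of both Atp1b1 and Atp1b2 was seen in 122 of 136 marginal cells (89.7%), 60 of 108 basal cells (55.6%), 17 of 29 spindle/root cells (58.6%) and 285 of 935 intermediate cells (30.5%). Cells were not thinned for these shares, and their median depth was 11462, 11609.5, 7702 and 5943 UMIs in the same order. The part of depth in the shares was not tested. In basal cells the majority isoform was Atp1b1 in 63 of 94 cells and Atp1b3 in 26, and in spindle/root cells Atp1b1 in 14 of 17 and Atp1b2 in 3.

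The spread within marginal and basal cells moved with RNA of intermediate type. As a measure, 88 genes at least 20-fold higher in intermediate than in marginal nuclei were summed, with no family gene among them. Their level in whole marginal cells was 28.8% of that in intermediate cells (27.2% to 32.8% by capture), and in basal cells 40.2% (35.0% to 43.8%). In marginal nuclei it was 2.84%, which the choice of genes keeps low, and in basal nuclei 16.3%. Marginal cells were divided into 4 bins of 34 by this measure. In the lowest bin, which carried 1.94% of the intermediate level, Atp1b1 was 230 CPM, Atp1b2 7242 CPM and Atp1b3 75.3 CPM. In the highest, at 54.7%, they were 4293, 3002 and 787 CPM. Atp1b1 thus held 3.05% of beta UMIs in the lowest bin and 53.1% in the highest. The 3 clusters that made up the marginal cells showed the same order. The cluster of 34 cells with 2.28% of the intermediate level had 296 CPM of Atp1b1, that of 45 cells with 13.9% had 943 CPM, and that of 57 cells with 45.2% had 3471 CPM. The part of this RNA in the levels of Atp1b1 and Atp1b3 in marginal cells was not tested.

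In basal cells the bin of 27 with the least intermediate-type RNA, 12.3% of the intermediate level, had 472 CPM of Atp1b1 and 842 CPM of Atp1b3, and the bin with the most, 70.7%, had 5657 and 1381 CPM. Atp1b3 was therefore the leading isoform in the lowest bin, at 60.1% of beta UMIs against 33.7% for Atp1b1. The levels of Atp1b1 in the 2 clusters of basal cells, 695 CPM in 53 cells and 4610 CPM in 55 cells, stood beside 17.8% and 57.2% of the intermediate level. RNA of marginal type, measured by 41 genes chosen in the same way, was 17.2% of its marginal level in basal cells, and Atp1b2 there was 43.5 CPM in the bin with 5.31% of it and 596 CPM in the bin with 30.8%. Either list was chosen between marginal and intermediate nuclei alone, and basal cells may use these genes themselves. The part of such RNA in the beta levels of basal cells was not tested. Intermediate cells carried 2.78% of the marginal-type RNA. There the 467 cells at or under the median had 57.0 CPM of Atp1b2 and the 234 in the top bin 72.3 CPM, with Poisson intervals that overlapped (48.1 to 67.1 and 59.6 to 86.9 CPM).

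**Figure D4:**
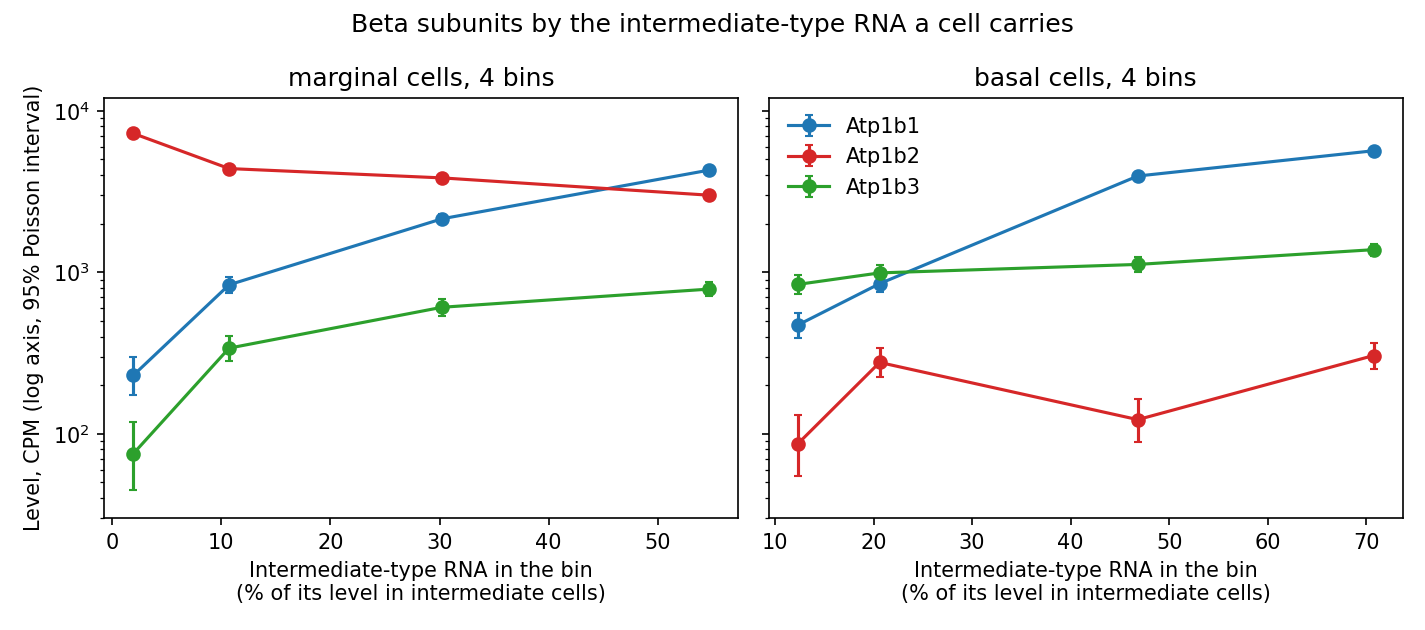
Level of the beta subunits in CPM (log axis, 95% Poisson intervals) in 4 bins of marginal and basal cells ordered by the intermediate-type RNA they carry, as a percent of its level in intermediate cells. In marginal cells Atp1b1 goes from 230 to 4293 CPM and Atp1b2 from 7242 to 3002 CPM, and in basal cells Atp1b1 goes from 472 to 5657 CPM.

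Calls for Atp1b1 and Atp1b2 also moved with the set of cells. With barcodes over 50% mitochondrial UMIs left out and the rest clustered again, 105 marginal, 38 basal and 16 spindle/root cells were named, and the difference of Atp1b1 in marginal cells turned to 0.46 (adjusted p = 0.029), in basal cells to -1.71 (adjusted p = 3.4e-16), and that of Atp1b2 in spindle/root cells to -2.27 (adjusted p = 0.00073). Median mitochondrial content was 26.6% in marginal, 31.3% in intermediate, 24.3% in basal and 11.2% in spindle/root cells. The median UMIs per cell were 11462, 5943, 11609.5 and 7702.

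In the nuclei, a single capture with no replicate and hence no test, Atp1b2 was again highest in marginal nuclei at 1957 CPM (95% Poisson interval 1914 to 2001) and lowest in intermediate nuclei at 265 CPM (245 to 286). Basal and spindle/root nuclei lay between them, at 530 CPM (488 to 575) and 493 CPM (423 to 571), with overlapping intervals. Such intervals cover counting error only. The ratio of marginal to intermediate nuclei was 7.39, against 64.6 in cells. Atp1b1 was highest in intermediate nuclei at 2943 CPM (2876 to 3011), followed by spindle/root nuclei at 870 CPM (776 to 973) and basal nuclei at 644 CPM (597 to 693), and it was lowest in marginal nuclei at 256 CPM (240 to 272). The ratio of intermediate to marginal was 11.5 in nuclei and 2.65 in cells. Atp1b3 followed the order intermediate, basal, spindle/root and marginal at 592, 333, 196 and 131 CPM. In shares of beta UMIs, basal nuclei had 42.8% Atp1b1, 35.2% Atp1b2 and 22.1% Atp1b3, against 69.8%, 4.87% and 25.4% in basal cells. Spindle/root nuclei had 55.8%, 31.6% and 12.6%, against 56.3%, 32.3% and 11.4% in spindle/root cells. These values join an Epyc and an Anxa1 cluster, described below, whose own shares lay further apart. In the Epyc cluster Atp1b1 and Atp1b2 held 82.5% and 5.84% in cells and 60.2% and 27.2% in nuclei. In the Anxa1 cluster they held 46.3% and 42.4% in cells and 52.0% and 35.5% in nuclei.

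Relative to the cells of the same type, Atp1b2 stood at 45.3% in marginal nuclei but at 397% in intermediate and 244% in basal nuclei, and Atp1b1 at 48.1% in intermediate and 11.1% in marginal nuclei. The totals behind these ratios are unlike. Cells were counted on 27998 genes and nuclei on 48816. Median mitochondrial content was 24.3% to 31.3% in these cells and 1.73% to 4.02% in these nuclei. Erythroid nuclei, a type from outside the SV epithelium, held 116 CPM of Atp1b2 and 122 CPM of Atp1b1. Immune nuclei held more. Atp1b2 was 172 CPM (103 to 268) in T or NK cell, 208 CPM (146 to 288) in neutrophil, 228 CPM (185 to 279) in B cell and 615 CPM (394 to 915) in macrophage nuclei. The T or NK cell interval overlapped that of erythroid nuclei (103 to 130). The macrophage value came from 24 UMIs in 22 nuclei, and its interval overlapped those of basal and spindle/root nuclei. Atp1b1 was 217, 294, 609 and 692 CPM in the same order. Erythroid nuclei are not a reference at 0, since erythroid cells may make beta subunits themselves, and whole erythroid cells of captures 2 and 3 held 146 CPM ± 64.1 of Atp1b1 and 11.3 CPM ± 6.39 of Atp1b2 (SD, n = 2). After thinning to 500 UMIs, Atp1b2 was found in 54.5% of marginal, 22.0% of basal, 19.0% of spindle/root, 11.7% of intermediate and 7.1% of erythroid nuclei, and without thinning in 86.4%, 49.8%, 46.3%, 32.6% and 43.2%, at a median of 5278 UMIs in erythroid nuclei against 1371 in marginal nuclei. Atp1b1 was found in 65.4% of intermediate, 27.8% of spindle/root, 22.3% of basal, 10.9% of marginal and 5.22% of erythroid nuclei after the same thinning. In B cell, neutrophil, T or NK cell and macrophage nuclei thinned alike, Atp1b2 was found in 12.6%, 4.23%, 3.03% and 27.3%, the last being 6 of 22 nuclei (10.7% to 50.2%). For Atp1b1 these values were 25.1%, 14.1%, 12.1% and 18.2%. Among cells thinned to 1000 UMIs, Atp1b2 was detected in 95.6% of marginal and 5.67% of intermediate cells and in 0 of 100 erythroid cells (exact upper limit 3.62% at that depth), of which 9.0% had a UMI of it without thinning. The marginal-type genes reached 27.0% of their marginal level in basal and 32.6% in spindle/root nuclei, and their part in Atp1b2 there was not tested.

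Marginal nuclei fell into clusters of 2306, 93 and 77. Atp1b2 was 1746 CPM (1702 to 1790) in the first, 4641 CPM (4392 to 4901) in the second and 1877 CPM (1707 to 2060) in the third. Atp1b1 was 224, 237 and 730 CPM in the same clusters. Intermediate nuclei of 2 clusters, 1312 and 161, had 2411 and 4752 CPM of Atp1b1 and 493 and 930 CPM of Atp1b3. Basal nuclei came from a cluster of 602 with 584 CPM of Atp1b1 and 548 CPM of Atp1b2 and a cluster of 40 with 1402 and 298 CPM. The cluster of 602 had a basal name only after a rule against mixed markers was waived. The cluster of 40 carried 77.2% of the intermediate-type RNA and the cluster of 602 carried 11.5%.

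Of Fxyd1, Fxyd2 and Fxyd6, Fxyd1 was highest in intermediate, basal and marginal cells and Fxyd6 in spindle/root cells. Fxyd3, a further FXYD gene, stood above Fxyd1 in intermediate (1371 against 474 CPM), basal (505 against 164 CPM), marginal (324 against 97.7 CPM) and spindle/root cells (447 against 156 CPM). In spindle/root cells Fxyd3 lay below Fxyd6, at 777 CPM. In spindle/root nuclei it was 297 CPM (243 to 359) against 260 CPM (210 to 319) for Fxyd6, with overlapping intervals. Fxyd1, a regulator of the pump best known in heart and skeletal muscle, was 458, 525 and 440 CPM in intermediate cells, 184, 171 and 136 CPM in basal cells, 86.9, 115 and 91.5 CPM in marginal cells, and 231 and 79.9 CPM in spindle/root cells. Intermediate cells lay above all other sums. Their difference was 2.11 ± 0.12 (adjusted p = 1.9e-27), and marginal cells fell by 1.28 ± 0.17 (adjusted p = 1.7e-09). Basal cells (-0.26 ± 0.16, adjusted p = 0.24) and spindle/root cells (-0.57 ± 0.26, adjusted p = 0.11) did not pass the test, although spindle/root cells passed without capture 2 (-1.53, adjusted p = 0.018) and at resolution 0.4 (-0.89, adjusted p = 0.0034). With at least 3 cells per sum, an alternative chosen after seeing the data that lets in the 4 spindle/root cells of capture 1, basal cells passed (-0.46, adjusted p = 0.042). Of the pairs, marginal against spindle/root and basal against spindle/root did not differ past the threshold, except the first with at least 3 cells per sum (-1.08, adjusted p = 0.0036). The call between marginal and basal cells was lost with at most 50% mitochondrial UMIs (-0.38, adjusted p = 0.31). In the nuclei Fxyd1 was 127 CPM (113 to 142) in intermediate, 60.3 CPM in basal, 28.0 CPM in spindle/root and 15.9 CPM in marginal nuclei, and in marginal cells it went from 29.3 CPM in the bin with the least intermediate-type RNA to 163 CPM in that with the most. The 2 clusters of intermediate cells, of 416 and 519 cells, had 670 and 337 CPM.

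Fxyd6, a FXYD protein described in brain and inner ear, reached 686 and 868 CPM in spindle/root cells. The 4 cells of capture 1 that were left out had 958 CPM. It was 23.7, 3.78 and 2.13 CPM in marginal cells, 0.97, 2.74 and 0.81 CPM in intermediate cells, and 2.75, 0 and 0 CPM in basal cells. Over all captures that is 220 UMIs in 29 spindle/root cells against 10 in 136 marginal, 10 in 935 intermediate and 1 in 108 basal cells. The 1750 unnamed cells had 14.0 CPM ± 10.4 (SD, n = 3), with a UMI in 3.26% of them. The difference of spindle/root cells was 8.58 ± 0.32 (adjusted p = 1.6e-38), and since 2 basal sums were at 0, the fitted sizes for this gene depend on the prior count and are no bounds. Fxyd6 passed the filter on low counts only through its spindle/root sums, the type in which it was then called higher. Its p-value there is therefore no independent support for the difference. Fxyd6 fell by 4.81 ± 0.84 in basal cells (adjusted p = 3.3e-06) and was lower in intermediate cells (-2.97 ± 1.03, adjusted p = 0.017), and marginal cells did not pass (-0.79 ± 0.88, adjusted p = 0.58). The intermediate call was lost without capture 1 (-1.60, adjusted p = 0.97) and at resolution 0.4 (-1.84, adjusted p = 0.97). With 20 principal components, which left 1 spindle/root sum, the basal call was lost (-1.18, adjusted p = 0.99) and the spindle/root and intermediate differences turned to -2.67 and 0.88 (adjusted p = 0.90 and 0.89). In the nuclei, Fxyd6 had 260 CPM (210 to 319) in spindle/root nuclei and between 1.83 and 3.29 CPM in the other 3 types, beside 0.75 CPM (0.09 to 2.72) in erythroid nuclei. Fibrocyte nuclei had 23.8 CPM (10.3 to 46.9). The 3848 unnamed nuclei held 64 UMIs, at 9.48 CPM (7.30 to 12.1), against 93 UMIs in spindle/root nuclei.

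The Fxyd6 signal came from 1 of the 2 clusters of spindle/root cells. A cluster of 18 cells led by Epyc, a proteoglycan gene, held 1840 CPM (1605 to 2100) with UMIs in 15 of its cells, and a cluster of 11 cells, called here by its spindle/root marker Anxa1 although Wfdc18 stood first among its genes, held 0 UMIs, which allows up to 19.8 CPM. The nuclei split in the same way, with 463 CPM (372 to 569) in 106 nuclei of the cluster with Epyc and 18.4 CPM (3.80 to 53.8) in 99 nuclei of the cluster with Anxa1. Of the beta subunits, Atp1b2 divided these clusters too, in cells and in nuclei. Atp1b2 was 75.3 CPM (34.4 to 143) in the Epyc cells and 1557 CPM (1365 to 1769) in the Anxa1 cells, and 365 CPM (285 to 461) and 645 CPM (527 to 781) in the nuclei. Atp1b1 was 1062 CPM in the Epyc cells and 1702 CPM in the Anxa1 cells. In the nuclei of these clusters it was 807 CPM (686 to 944) and 946 CPM (802 to 1108), with overlapping intervals. The Anxa1 cells were split off from the same first cluster as the marginal cells. Marginal-type RNA was 40.3% and 60.01% of its marginal level in the Epyc and Anxa1 cells, by genes that were chosen against intermediate nuclei alone and that spindle/root cells may use themselves. The spindle/root sums of captures 2 and 3, of 14 and 11 cells, joined both clusters.

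Fxyd2, the gamma subunit known from kidney tubules, was scarce. It was 22.3, 13.7 and 17.0 CPM in intermediate cells, 8.25, 5.79 and 17.9 CPM in basal cells and 17.1 and 11.4 CPM in spindle/root cells, and in marginal cells it had UMIs in capture 2 alone, at 6.30 CPM. The nuclei gave 2.80 to 6.82 CPM in the 4 types. With no test available and after thinning to 1000 UMIs in 1.60% of intermediate cells and at most 0.926% of cells of the other types, no order of types was read from it.

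**Figure D5:**
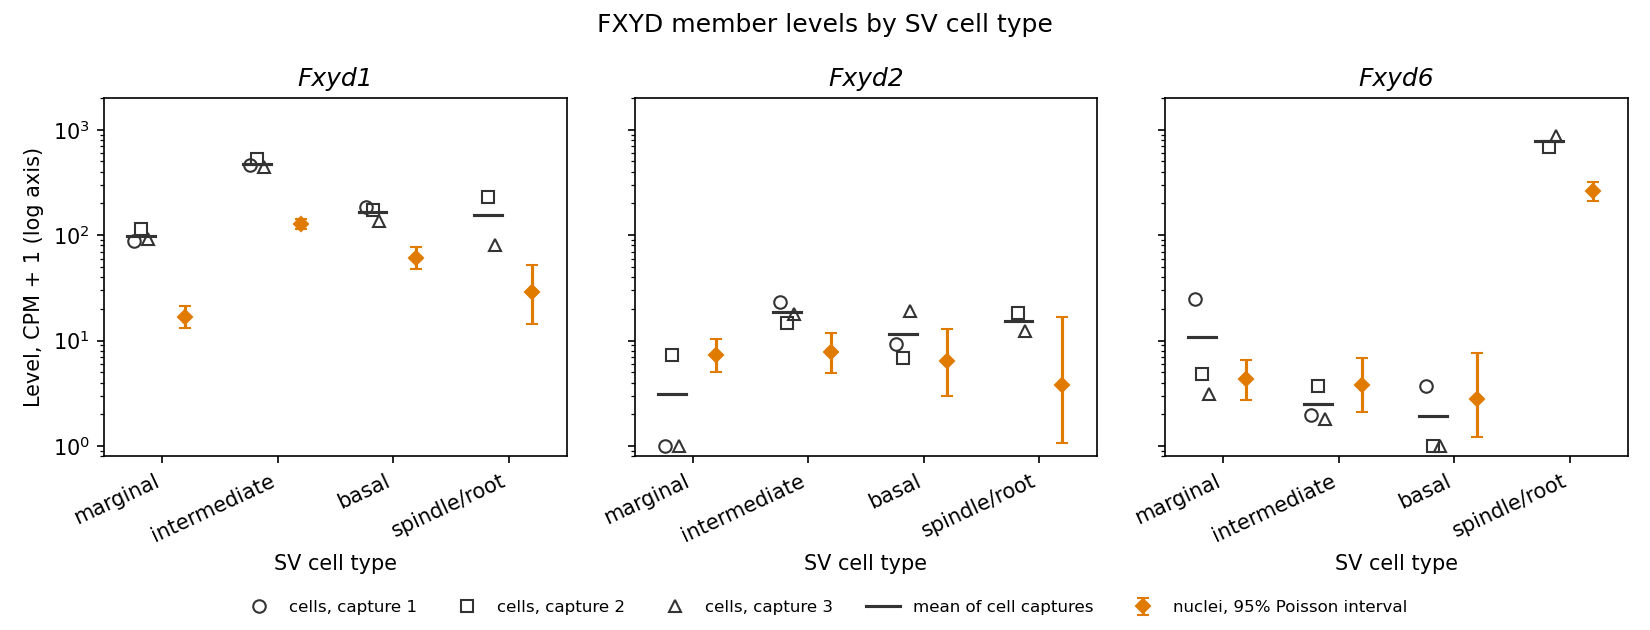
Level of Fxyd1, Fxyd2 and Fxyd6 as CPM + 1 (log axis) by SV cell type, with open symbols for the whole cell captures, a line for their mean and diamonds for the nuclei with 95% Poisson intervals. Fxyd6 in spindle/root cells lies at 686 and 868 CPM and at most at 23.7 CPM in a capture of any other type.

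As a share of the summed UMIs of the 3 FXYD members, Fxyd1 made up 96.1% ± 0.90 in intermediate, 93.2% ± 4.30 in basal and 89.4% ± 9.82 in marginal cells (SD, n = 3), and Fxyd6 made up 73.4% and 90.5% in spindle/root cells of captures 2 and 3. Fxyd3 is not part of these sums, although it stood above Fxyd1 in cells of all 4 types. In spindle/root nuclei it had 106 UMIs beside 93 of Fxyd6, so the shares hold among the 3 members only. The smallest sum behind these shares held 28 UMIs, in marginal cells. In nuclei Fxyd6 held 89.4% of 104 UMIs in spindle/root (exact binomial interval 81.9% to 94.6%) and Fxyd1 92.9% of 340 UMIs in intermediate nuclei (89.7% to 95.4%). In marginal nuclei Fxyd1 held 62.4% of 101 UMIs (52.2% to 71.8%), Fxyd2 24.8% and Fxyd6 12.9%. The 3 FXYD members summed to 946 CPM ± 17.5 (SD, n = 2) in spindle/root cells and to 494 CPM ± 43.4 in intermediate, 175 CPM ± 20.5 in basal and 110 CPM ± 15.6 in marginal cells (SD, n = 3). Fxyd3 alone was 1371 CPM in intermediate and 447 CPM in spindle/root cells, so this order holds for the 3 members only.

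Genes most like each member were found by Pearson's r of log2 CPM over the 11 sums among the 7429 genes. The sums share captures and 4 types, so r mainly reflects levels between types and is given as a description. For Atp1b2 they were Tnfrsf21 (r = 0.998), Lrp2, which encodes the endocytic receptor megalin (0.993), and Iqgap2 (0.993). For Atp1b1 they were Tbx2 (0.991), Mlana, a melanosome gene (0.983), and Cers6, a ceramide synthase gene (0.983). Atp1b3 was most like Zeb2 (0.988), Ppfibp1 (0.987) and Rapgef3 (0.987), Fxyd1 most like Mmp14 (0.968), Ifnk (0.964) and Rnf7 (0.954), and Fxyd6 most like Prss36 (0.978), Nr2f1 (0.976) and Fibin (0.970). In the nuclei, Lrp2 was 4933 CPM in marginal and 429 CPM in intermediate nuclei, Cers6 15.7 and 673 CPM, and Prss36 2849 CPM in spindle/root and 24.3 CPM in marginal nuclei. Between members, r was 0.88 for Atp1b1 and Fxyd1, 0.87 for Atp1b1 and Atp1b3, and -0.72 for Atp1b1 and Atp1b2.

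Other genes tied to the pump came from a list of 23 further FXYD, beta and proton pump genes, membrane anchors, regulators and sodium transporters, of which 12 passed the filter. In marginal cells 3 were called higher and 2 lower, in intermediate cells 6 and 3, in basal cells 3 and 4, and in spindle/root cells 2 and 4. Over all genes tested, 16.0% and 9.92%, 17.7% and 17.6%, 15.2% and 9.57%, and 11.5% and 8.02% were called higher and lower in these types. The median log2 difference over the 12 was 0.22, 0.84, -0.05 and -0.76. In marginal cells Ank3, which encodes the membrane anchor ankyrin G, was higher by 3.53, Sgk1, a kinase that acts on sodium transport, by 3.25 and Slc12a2, the sodium, potassium and chloride cotransporter that works beside the pump, by 1.97, and Fxyd3 fell by 1.17. Slc12a2 was 7421 CPM ± 934 in marginal and 2098 CPM ± 172 in intermediate cells (SD, n = 3). Intermediate cells had Cav1, the caveolin gene, higher by 2.11, Fxyd3 by 1.99, Ank2 by 1.47 and Src by 1.32, and Ank3, Sgk1 and Nedd4l fell by 3.00, 2.81 and 1.16. Fxyd3 was 1371 CPM ± 370 there, against 474 CPM ± 45.1 for Fxyd1 (SD, n = 3). Basal cells had the spectrin gene Sptbn1 higher by 1.28, with Ank3 and Sgk1 lower by 1.51 and 1.28, and in spindle/root cells Cav1 and Slc12a2 fell by 2.84 and 1.60. Nkain4 was also called higher in basal cells, at 24.3 CPM against 9.44 CPM in intermediate and 5.12 CPM in marginal cells, and since both spindle/root sums were at 0 its fitted size depends on the prior count. It passed the filter on low counts only through its basal sums, so this call is no independent result.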

How the data were processed

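UMI counts per gene and barcode, deposited by the authors as unnormalised filtered matrices, came from Cell Ranger 2.0.0 and mm10 per the submitters' processing notes. Strand use, and whether introns were counted in nuclei, are not given in the sources used here. Barcodes with at least 200 genes were kept, Scrublet doublets (scanpy 1.11.5, expected 0.8% per 1000 barcodes) were removed, and the rest were clustered with Seurat 5.3.0 at resolution 0.8 without the pump genes among the variable genes. Clusters were named from marker lists by a rule revised after the clusters were seen. It was waived for 1 cluster of 602 nuclei. Every type with at least 5 cells in a capture gave 1 sum of UMIs, 11 in all, fitted with edgeR 4.0.16 (TMM, filterByExpr, robust quasi-likelihood, capture as a block), with Benjamini-Hochberg adjustment over 7429 genes. Sums of 1 capture come from 1 suspension, and their deviations correlated at -0.05 to 0.26 over 15 pairs, 9 of them over 0.1. On simulated counts for the marginal comparison (7081 genes), 87 of 105 genes changed 4-fold and 50 of 95 changed 2-fold were recovered, with 9 false calls. The simulation gave all types the same mean profile and dispersion and no capture effect, so these rates need not hold for the data. Intervals are exact Poisson or Clopper-Pearson at 95%, and 0 counts were bounded at 3. Named were the members, listed pump genes with adjusted p under 0.05 and a log2 difference of at least 1, and the 3 genes most like each member. Members and lists were chosen with earlier results of these data known. Alternatives covered doublets, gene and mitochondrial limits, clustering, scaling, DESeq2 1.42.0, low counts, cells per sum and each capture left out. The alpha subunit genes and 1 listed pump gene that met this rule are not reported here.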

Additional observations from a re-analysis of the deposited data

How the results depend on the processing

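Of 340 recomputed differences of a member from the other 3 types, 320 kept their direction and side of the threshold, as did 479 of 510 between pairs, and 10 of the 20 calls by member and type held under every alternative. With at most 50% mitochondrial UMIs, directions reversed for Atp1b1 in marginal (0.46) and basal cells (-1.71), Atp1b3 in marginal (0.39) and Atp1b2 in spindle/root cells (-2.27), and for the pairs Atp1b1 marginal against basal (1.62), Atp1b2 intermediate against basal (0.51) and spindle/root (0.62), and basal against spindle/root for Atp1b1 (-0.26), Atp1b2 (0.11) and Fxyd1 (-0.18). Genes called lower were then 457 in marginal, 640 in intermediate and 355 in basal cells, and 470 were higher in spindle/root cells. Members called were 2 higher and 1 lower in marginal and 1 higher in spindle/root cells. Shares of Atp1b1 were 48.0% in basal, 84.9% in intermediate and 87.8% in spindle/root cells, and that of Atp1b2 in marginal cells 51.9%. With 20 principal components only 11 spindle/root cells and 1 of their sums remained. Fxyd6 then reversed in spindle/root (-2.67), marginal (2.96) and intermediate cells (0.88) and, against spindle/root, in marginal (4.23), intermediate (2.66) and basal cells (1.12), and Fxyd1 in marginal against spindle/root cells (0.091). Genes called were 458 lower in marginal, 473 lower in basal, and 366 higher and 288 lower in spindle/root cells, members called were 1 lower in intermediate, 2 higher and 1 lower in basal and 1 higher in spindle/root cells, and Atp1b1 held 42.0% in spindle/root cells. At resolution 0.4, with 61 spindle/root cells, Atp1b3 (0.026) and Fxyd6 (0.62) in marginal cells and Atp1b2 in marginal against spindle/root cells (-0.088) reversed, 1360 genes were higher and 1045 lower in spindle/root cells, members called were 1 lower in marginal, 1 lower in intermediate and 2 higher in basal cells, and the shares were 75.1% (Atp1b1, basal), 51.3% (Atp1b2, marginal) and 14.3% (Atp1b1, spindle/root). The cause of these changes beyond the cells counted was not tested.

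Leaving out 1 capture gave 446 to 611 genes lower in marginal, 848 to 1174 in intermediate, 366 to 553 in basal and 302 to 565 in spindle/root cells, 508 to 827 higher in spindle/root cells, and 1 to 2 members lower in intermediate cells. Without capture 2, Fxyd1 reversed in basal cells (0.17, range -0.38 to 0.17 over the captures left out) and in marginal against spindle/root cells (0.34, range -0.897 to 0.34), and Fxyd6 in intermediate against basal cells (-0.0041, range -0.0041 to 3.91). Without capture 3, Fxyd1 reversed in basal against spindle/root cells (-0.071, range -0.071 to 1.27). DESeq2 called 450 genes lower in marginal, 343 in basal and 275 in spindle/root cells and 815 higher in intermediate cells. Without TMM the median of all genes in intermediate cells moved from 0.03 to -0.30, 722 genes were higher and 2233 lower there (24.4% higher, against 50.1%), 323 were lower in spindle/root cells (78.2% higher, against 58.9%), and Atp1b3 in intermediate against basal cells reversed (-0.034). Without the replicate block, Fxyd6 in marginal against basal cells lost its call (2.85, adjusted p = 0.058 by edgeR's quasi-likelihood test) and no other call of a member changed. That call (3.01 ± 1.13, adjusted p = 0.033 in the main fit) was also lost with DESeq2 (2.93, adjusted p = 0.12). By edgeR it was lost without capture 1 (4.44, adjusted p = 0.14) or capture 2 (2.81, adjusted p = 0.082). It was further lost with at most 50% mitochondrial UMIs (1.60, adjusted p = 0.39) and with 20 principal components (3.11). Chosen after seeing the data, at least 3 cells per sum reversed Fxyd1 in basal against spindle/root cells (-0.33), and basal nuclei without the cluster of 602 moved to 1402 CPM of Atp1b1, 298 CPM of Atp1b2, 484 CPM of Atp1b3 and 161 CPM of Fxyd1. No paired analysis was possible because the nuclei share no suspension with the cells. Spindle/root values rest on 14 and 11 cells in 2 captures and the nuclei on 1 library.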

Other observations

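Beyond the 4 SV types, fibrocytes, the connective tissue cells of the adjoining spiral ligament, had more Atp1b1 than Atp1b3 and little Atp1b2. In those of captures 2 and 3, with 22 and 31 cells, Atp1b1 was 1223 CPM ± 15.0, Atp1b3 624 CPM ± 146 and Atp1b2 80.7 CPM ± 73.8 (SD, n = 2). In 170 fibrocyte nuclei they were 821, 285 and 366 CPM. B cells of capture 3, 34 cells, had 713 CPM of Atp1b1, 184 CPM of Atp1b3 and 8.39 CPM of Atp1b2 from 1 UMI, and 207 B cell nuclei had 609, 259 and 228 CPM.

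In 97 nuclei named by markers of Reissner's membrane, Atp1b2 was 538 CPM (95% Poisson interval 423 to 674) and Atp1b1 495 CPM (385 to 626), with overlapping intervals, and the marginal-type genes stood at 42.3% of their marginal level. In 71 neutrophil nuclei Atp1b2 was 208 CPM (146 to 288) and Atp1b1 294 CPM (219 to 387).

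The 1750 unnamed cells, with a median of 55.4% mitochondrial UMIs, had 2464 CPM ± 338 of Atp1b1, 553 CPM ± 78.1 of Atp1b3 and 320 CPM ± 37.0 of Atp1b2 (SD, n = 3). They carried 33.6% of the intermediate-type and 12.3% of the marginal-type RNA. The 3848 unnamed nuclei had 1503, 546 and 979 CPM of these genes and a median of 50.1% mitochondrial UMIs.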
